A study of Mus musculus with 24 samples.

Results

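The HoxA, HoxB and HoxC clusters were followed in embryonic stem cells (ESCs) and embryoid bodies that had or lacked EED. The members were the listed Hoxa, Hoxb and Hoxc genes that stand alone as the gene symbol of a probe set, and 28 of 29 listed genes met that rule, of 19938 genes measured. They comprised 10 HoxA, 9 HoxB and 9 HoxC genes, each with 1 probe set. Hoxb8 was listed but had no probe set of its own, because the only one that names it is shared with Hoxb7.

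RNA was hybridised to 24 Affymetrix Mouse Gene 1.0 ST arrays, whose probes are spread along whole transcripts. Cells without Eed (knockout, KO) came from E14 and J1 and those with it (wild type, WT) from J1 and V6.5, and both were taken as ESCs on day 0 and as embryoid bodies on days 3 and 7. Each line of a genotype gave 2 arrays a day, so a genotype had 4 arrays on each day. All 4 lines were grown on inactivated mouse embryonic fibroblasts with LIF, a cytokine that holds ESCs undifferentiated, and embryoid bodies were started from fibroblast-depleted cells in hanging drops without LIF. J1 is the only line with both genotypes, so elsewhere line and genotype cannot be told apart. KO J1 and WT J1 are still 2 of the 4 lines, so other differences between these cells cannot be told apart from the genotype either. The labels give neither the Eed allele nor whether repeat arrays came from separate cultures. The p-values below therefore measure the spread between these arrays, which may be technical.

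Hox genes encode homeodomain transcription factors that give cells their position along the head-to-tail axis. Within a cluster the genes lie in the order in which they are used: low-numbered (anterior) paralogs are switched on first and act in the hindbrain and neck, and high-numbered (posterior) paralogs follow and act in the trunk, limbs and tail. In ESCs the clusters are covered by trimethylated lysine 27 of histone H3, the mark that Polycomb repressive complex 2 (PRC2) sets, and EED is the PRC2 subunit that binds this mark and is needed for the enzyme's activity. Retinoic acid, WNT and FGF signals and the CDX factors open the clusters during normal development.

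Values are log2 expression values as deposited. A gene was called, and is said to have risen or fallen, when limma gave it a p under 0.05 after Benjamini-Hochberg adjustment over all genes and a difference of at least 2-fold, which is 1 on the log2 scale. Between genotypes, risen or fallen means higher or lower in KO than in WT on the same day, not a change over time. All adjusted p-values below are of that kind, and differences carry the standard error (SE) of the fit. Eed itself was lower in KO than in WT arrays, with differences of -3.44, -3.69 and -3.23 on days 0, 3 and 7 (log2, SE 0.226 each), with no overlap of the groups on any day. Repeat arrays had r between 0.990 and 0.995 across genes in 11 of 12 pairs; the day 7 pair of WT J1 had r = 0.962 and 1256 genes 2-fold apart, against 21 to 163 in the others. The average of 9 ESC marker genes on day 0 lay between 11.61 and 12.03 in KO arrays and between 11.19 and 11.60 in WT arrays, so the cells labelled ESCs carried the defining genes of ESCs in both genotypes.

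In a bulk sample, fewer cells that transcribe a gene and less RNA from each cell cannot be told apart, and this holds for every value below. Hox paralogs resemble each other in the homeobox, and whether probes read more than 1 paralog was not tested. Over all arrays the members' values ran from 4.84 to 9.78.

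The HoxA genes that rose in KO embryoid bodies are shown first by the 250 bases before their transcription starts, since these genes moved together and CG-rich promoter DNA is where PRC2 is known to be recruited. Sequences are RefSeq's on build GRCm38.p6, read 5′ to 3′ on the gene's own strand, which is the minus strand for all of HoxA, and every CG is in capitals. Of the 28 members, 12 had a promoter in the table used, among them 9 HoxA genes with 10 starts.
Hoxa5, chr6:52204588-52204837: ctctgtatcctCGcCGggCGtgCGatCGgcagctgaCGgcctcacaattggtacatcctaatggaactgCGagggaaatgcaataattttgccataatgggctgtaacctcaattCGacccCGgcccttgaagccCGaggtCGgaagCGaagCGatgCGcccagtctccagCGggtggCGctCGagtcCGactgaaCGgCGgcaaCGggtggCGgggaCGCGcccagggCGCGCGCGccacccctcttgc
Hoxa9, chr6:52227371-52227620: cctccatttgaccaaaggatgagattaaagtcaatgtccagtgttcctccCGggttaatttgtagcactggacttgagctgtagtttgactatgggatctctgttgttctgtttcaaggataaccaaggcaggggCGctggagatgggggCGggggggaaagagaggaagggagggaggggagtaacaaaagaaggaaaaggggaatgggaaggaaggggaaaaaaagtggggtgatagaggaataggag
Hoxa10, first start, chr6:52240855-52241104: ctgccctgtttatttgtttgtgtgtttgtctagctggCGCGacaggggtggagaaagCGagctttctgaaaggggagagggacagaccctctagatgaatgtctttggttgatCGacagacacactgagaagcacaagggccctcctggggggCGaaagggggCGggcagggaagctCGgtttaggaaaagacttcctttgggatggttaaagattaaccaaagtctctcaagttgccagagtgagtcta
Hoxa10, second start, chr6:52234940-52235189: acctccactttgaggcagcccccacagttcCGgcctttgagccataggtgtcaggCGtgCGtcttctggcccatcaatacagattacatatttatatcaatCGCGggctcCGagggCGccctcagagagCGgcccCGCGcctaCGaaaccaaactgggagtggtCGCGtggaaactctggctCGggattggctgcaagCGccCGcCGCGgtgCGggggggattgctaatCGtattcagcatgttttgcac
Hoxa11, chr6:52245811-52246060: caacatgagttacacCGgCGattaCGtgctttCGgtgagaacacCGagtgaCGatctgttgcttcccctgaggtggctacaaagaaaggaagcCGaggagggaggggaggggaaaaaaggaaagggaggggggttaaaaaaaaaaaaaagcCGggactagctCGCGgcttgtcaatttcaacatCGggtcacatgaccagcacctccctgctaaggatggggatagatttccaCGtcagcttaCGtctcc

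The Hoxa5 window held 28 CG, the Hoxa9 window 3, the first and second Hoxa10 windows 7 and 20, and the Hoxa11 window 13. The median was 13 over the 13 member starts, which ranged from 3 in Hoxa9 to 35 in Hoxa13, against a median of 6 over all 32851 promoters of the table. At least as many CG as in Hoxa5 stood in 7.61% of all promoters, and at least as many as in Hoxa9 in 71.0%, so the called HoxA genes did not share a CG-rich window. A search of both strands found TTTATG, a motif of posterior HOX and CDX proteins, in 1 of the 13 member windows, that of Hoxa7 (10.8% of all promoters), and TGATTNAT, a motif bound by HOX with PBX, in 1, that of Hoxa2 (2.82% of all promoters). Neither motif was among the letters of the 5 windows printed here.

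On day 7, 7 of 28 members had risen and 1 had fallen in KO embryoid bodies relative to WT, against 3.08% and 1.28% of all genes. The risen genes were Hoxa5, Hoxa9, Hoxa10 and Hoxa11 of HoxA and Hoxc11, Hoxc12 and Hoxc13 of HoxC, and all but Hoxa5 belong to the posterior paralogs 9 to 13. The gene that fell was Hoxb2, an anterior gene of HoxB. The median difference of the 28 members was 0.59, against -0.036 over all genes (log2).

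Hoxa5 acts in the neck vertebrae and the lung. On day 0 it read 6.0 and 5.74 in KO E14 and 6.08 and 5.75 in KO J1, against 5.76 and 5.56 in WT J1 and 5.89 and 5.85 in WT V6.5 (log2 values of single arrays, as for all genes below). On day 3 the values were 6.54 and 6.14 in KO E14 and 6.57 and 6.34 in KO J1, against 5.89 and 6.03 in WT J1 and 5.57 and 5.76 in WT V6.5. On day 7 they were 6.39 and 7.15 in KO E14 and 7.43 and 7.39 in KO J1, against 5.62 and 5.60 in WT J1 and 5.70 and 6.03 in WT V6.5. The genotypes overlapped in ESCs, stood apart by little on day 3 and by more on day 7, when KO E14 replicate 1 was the lowest KO array. The difference was 0.13 on day 0 (SE 0.192, adjusted p = 0.88 in limma), 0.59 on day 3 (SE 0.192, adjusted p = 0.13) and 1.35 on day 7 (SE 0.192, adjusted p = 2.2e-05).

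Hoxa9 acts in blood stem and progenitor cells and in the trunk. In ESCs it read 6.85 and 7.01 in KO E14 and 6.98 and 6.79 in KO J1, against 6.56 and 6.17 in WT J1 and 6.5 and 6.37 in WT V6.5. Day 3 gave 6.98 and 6.74 in KO E14 and 7.19 and 7.34 in KO J1, against 6.26 and 6.55 in WT J1 and 6.44 and 6.44 in WT V6.5. By day 7 it stood at 8.01 and 8.17 in KO E14 and 8.26 and 8.37 in KO J1, against 6.5 and 6.96 in WT J1 and 6.64 and 6.59 in WT V6.5. Every KO array lay above every WT array on all 3 days, and the KO values of day 7 were above all earlier ones. The day 7 difference was 1.53 (SE 0.139, adjusted p = 4.4e-08 in limma), against 0.51 on day 0 (SE 0.139, adjusted p = 0.06) and 0.64 on day 3 (SE 0.139, adjusted p = 0.014), both under 2-fold.

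Hoxa10 patterns the lumbar vertebrae and the uterus. Its ESC values were 7.42 and 7.64 in KO E14 and 7.33 and 7.04 in KO J1, against 6.77 and 6.79 in WT J1 and 6.80 and 7.17 in WT V6.5. Embryoid bodies of day 3 had 7.40 and 7.22 in KO E14 and 7.47 and 7.47 in KO J1, against 6.88 and 6.88 in WT J1 and 6.82 and 6.76 in WT V6.5. Those of day 7 had 8.23 and 9.26 in KO E14 and 8.85 and 8.84 in KO J1, against 6.91 and 7.37 in WT J1 and 6.85 and 6.57 in WT V6.5. On day 0 a WT V6.5 array reached into the KO range, and on days 3 and 7 the genotypes were apart. The day 7 difference was 1.87 (SE 0.2, adjusted p = 4.9e-07 in limma), after 0.47 on day 0 and 0.55 on day 3 (SE 0.2, adjusted p = 0.29 and 0.19).

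Hoxa11 is needed for the forearm bones, the kidney and the uterus. It read 6.61 and 6.85 in KO E14 and 6.43 and 6.81 in KO J1, against 6.06 and 6.03 in WT J1 and 6.01 and 6.25 in WT V6.5 on day 0. It read 6.27 and 6.53 in KO E14 and 6.70 and 6.78 in KO J1, against 6.02 and 6.17 in WT J1 and 5.92 and 5.90 in WT V6.5 on day 3. It read 7.66 and 8.31 in KO E14 and 8.12 and 8.25 in KO J1, against 6.13 and 6.57 in WT J1 and 5.78 and 5.74 in WT V6.5 on day 7. KO arrays were the higher ones throughout, with WT J1 above WT V6.5 on day 7. With 2.03 on day 7 (SE 0.181, adjusted p = 3.4e-08 in limma) it had the largest difference of the 28 members, against 0.59 on day 0 and 0.56 on day 3 (SE 0.181, adjusted p = 0.10 and 0.12).

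The other 6 HoxA genes were not called. Hoxa13, which shapes the digits and the hindgut and lies at the posterior end of the cluster, differed by 0.73 on day 0 (SE 0.178, adjusted p = 0.029 in limma), 0.34 on day 3 and 0.81 on day 7 (SE 0.178, adjusted p = 0.0024). Hoxa2 and Hoxa3, hindbrain and pharyngeal arch genes, differed by 0.65 and 0.60 on day 7, and Hoxa4, Hoxa6 and Hoxa7 by 0.24, 0.48 and 0.59. On day 7 every KO array lay above every WT array for 9 of the 10 HoxA genes, Hoxa4 being the exception, against 9.7% of all genes. Called at a 2-fold minimum were only the 4 genes above, and the HoxA median was 0.27, 0.56 and 0.73 on days 0, 3 and 7.

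**Figure D1:**
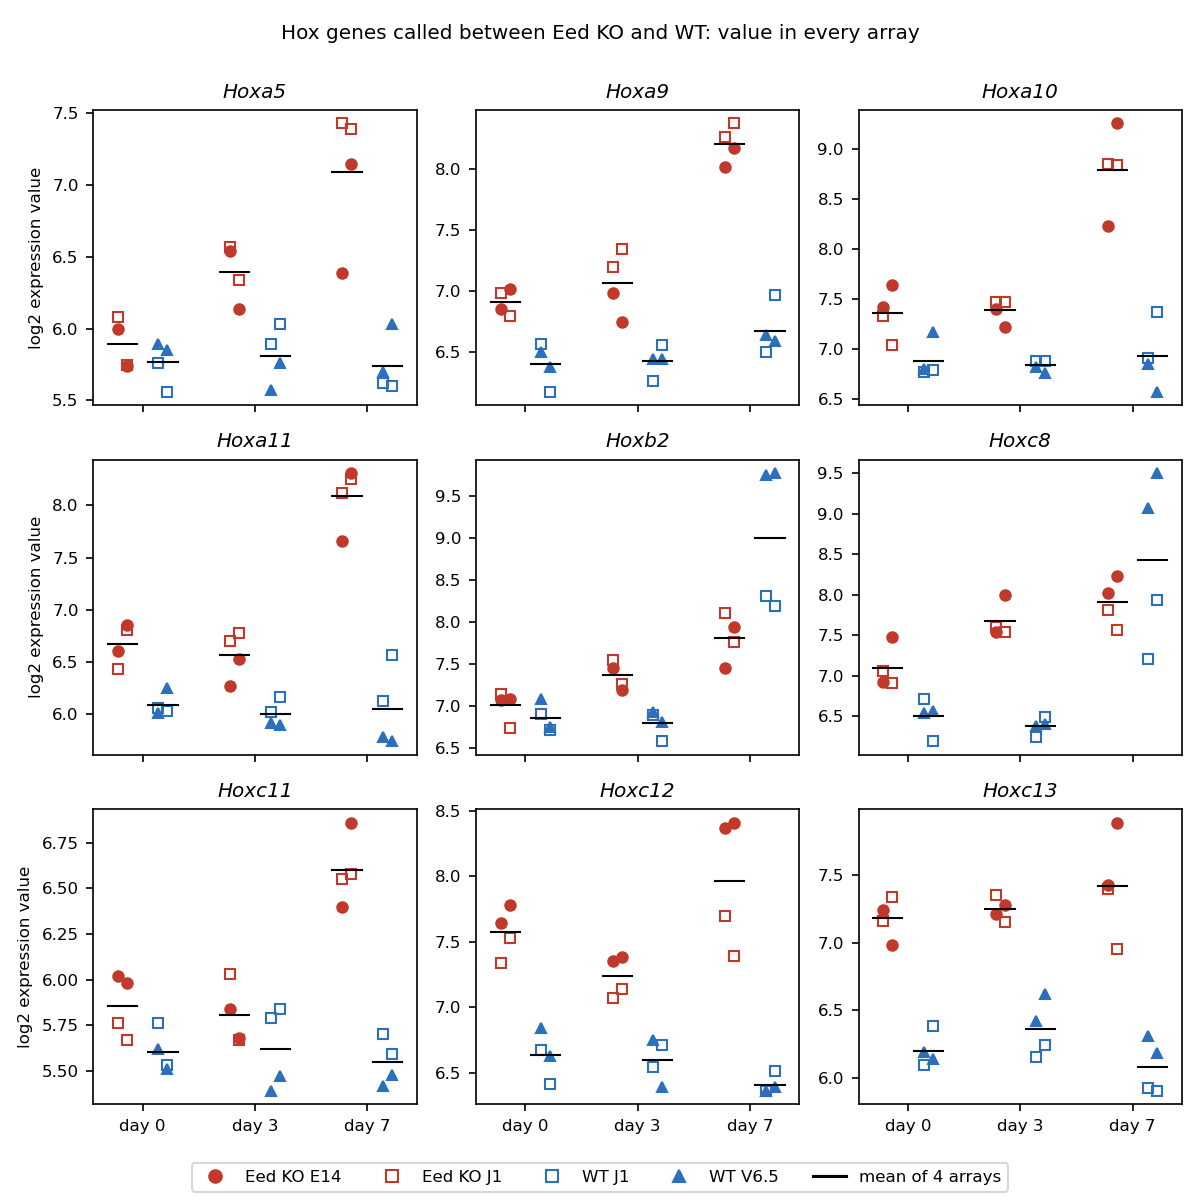
Log2 expression values (vertical axes, each panel with its own scale) on days 0, 3 and 7 for the 9 Hox genes called between Eed KO (red, left of each day) and WT (blue, right), 1 point an array and a bar at the mean of 4 arrays. The KO points of Hoxa9, Hoxa10 and Hoxa11 climb on day 7 while WT points stay level. Those of Hoxb2 climb in both genotypes and further in WT, with both WT V6.5 arrays at 9.76 and 9.78.

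Hoxc11, Hoxc12 and Hoxc13 form the posterior end of HoxC. Hoxc11, expressed in the hindlimb and sacral region, read 6.02 and 5.98 in KO E14 and 5.76 and 5.67 in KO J1, against 5.76 and 5.53 in WT J1 and 5.62 and 5.51 in WT V6.5 on day 0. On day 3 its values were 5.84 and 5.68 in KO E14 and 6.03 and 5.67 in KO J1, against 5.79 and 5.84 in WT J1 and 5.39 and 5.47 in WT V6.5. On day 7 they were 6.40 and 6.86 in KO E14 and 6.55 and 6.58 in KO J1, against 5.70 and 5.59 in WT J1 and 5.42 and 5.48 in WT V6.5. The genotypes overlapped on days 0 and 3 and were apart on day 7, where the difference was 1.05 (SE 0.133, adjusted p = 5e-06 in limma). It lay close to the 2-fold limit and was 0.96 without KO E14 day 7 replicate 2 and 0.95 without the line WT V6.5, so it was not called there.

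Hoxc12 is a posterior gene of skin and hair follicles. Its ESC arrays gave 7.64 and 7.78 in KO E14 and 7.34 and 7.53 in KO J1, against 6.67 and 6.41 in WT J1 and 6.84 and 6.63 in WT V6.5. Day 3 arrays gave 7.35 and 7.38 in KO E14 and 7.07 and 7.14 in KO J1, against 6.54 and 6.71 in WT J1 and 6.75 and 6.39 in WT V6.5. Day 7 arrays gave 8.37 and 8.41 in KO E14 and 7.70 and 7.39 in KO J1, against 6.36 and 6.51 in WT J1 and 6.36 and 6.39 in WT V6.5. KO arrays were above all WT arrays on each day, and on day 7 KO E14 stood above KO J1. Differences were 0.94 on day 0 (SE 0.167, adjusted p = 0.0031 in limma), 0.63 on day 3 (SE 0.167, adjusted p = 0.045) and 1.56 on day 7 (SE 0.167, adjusted p = 4.9e-07).

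Hoxc13 is required for hair and nail keratins. It was at 7.24 and 6.98 in KO E14 and 7.16 and 7.34 in KO J1, against 6.09 and 6.38 in WT J1 and 6.19 and 6.14 in WT V6.5 in ESCs. It was at 7.21 and 7.28 in KO E14 and 7.35 and 7.15 in KO J1, against 6.15 and 6.24 in WT J1 and 6.42 and 6.62 in WT V6.5 on day 3. It was at 7.43 and 7.89 in KO E14 and 7.40 and 6.95 in KO J1, against 5.92 and 5.90 in WT J1 and 6.31 and 6.18 in WT V6.5 on day 7. KO arrays were above all WT arrays on each day. The differences were 0.98 (SE 0.164, adjusted p = 0.0017 in limma), 0.89 (SE 0.164, adjusted p = 0.0036) and 1.34 (SE 0.164, adjusted p = 3.3e-06) on days 0, 3 and 7. The first and second of these missed the 2-fold minimum.

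Hoxc8, which sets the identity of brachial motor neurons and thoracic vertebrae, was the member called on day 3, 1 of 28 against 0.667% of all genes. Its ESC values were 6.92 and 7.48 in KO E14 and 7.06 and 6.91 in KO J1, against 6.71 and 6.19 in WT J1 and 6.54 and 6.57 in WT V6.5. On day 3 they were 7.54 and 8.0 in KO E14 and 7.60 and 7.54 in KO J1, against 6.25 and 6.49 in WT J1 and 6.38 and 6.41 in WT V6.5, and on day 7 8.02 and 8.23 in KO E14 and 7.81 and 7.56 in KO J1, against 7.21 and 7.94 in WT J1 and 9.07 and 9.50 in WT V6.5. KO arrays were above all WT arrays on days 0 and 3, whereas on day 7 the groups overlapped, with WT V6.5 highest and WT J1 replicate 1 lowest. The differences were 0.59 on day 0 (SE 0.322, adjusted p = 0.48 in limma), 1.29 on day 3 (SE 0.322, adjusted p = 0.033) and -0.53 on day 7 (SE 0.322, adjusted p = 0.31). The day 3 call was lost under several alternatives: adjusted p was 0.33 with arrays of a line averaged, 0.39 without KO E14 and 0.13 without KO J1. Leaving out any of 6 single day 3 arrays ended it too, at adjusted p = 0.064 and 0.062 without KO J1 replicates 1 and 2, 0.11 without KO E14 replicate 2, 0.057 without WT J1 replicate 1, and 0.082 and 0.066 without WT V6.5 replicates 1 and 2.

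The remaining HoxC genes were not called on day 7 with all lines. Hoxc4, Hoxc5 and Hoxc6, the neck and upper trunk genes, differed by 0.00, -0.23 and -0.30 on day 7, with overlapping genotypes. Hoxc9 and Hoxc10, which mark thoracic and lumbar motor neurons, differed by 0.93 (SE 0.234, adjusted p = 0.007 in limma) and 0.81 (SE 0.184, adjusted p = 0.0033), under 2-fold. Hoxc9 was at 1 or more without KO J1 day 7 replicate 2, where 9 members were called in place of 8. The medians of the 9 HoxC genes were 0.36, 0.45 and 0.81 on days 0, 3 and 7.

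HoxB went the other way on day 7 at its anterior end. Hoxb2, which acts in rhombomeres of the hindbrain, read 7.07 and 7.09 in KO E14 and 7.14 and 6.74 in KO J1, against 6.91 and 6.72 in WT J1 and 7.08 and 6.75 in WT V6.5 on day 0. On day 3 its values were 7.46 and 7.19 in KO E14 and 7.55 and 7.27 in KO J1, against 6.89 and 6.58 in WT J1 and 6.93 and 6.81 in WT V6.5. On day 7 they were 7.45 and 7.95 in KO E14 and 8.11 and 7.76 in KO J1, against 8.31 and 8.19 in WT J1 and 9.76 and 9.78 in WT V6.5. KO was above WT in every array on day 3 and below it in every array on day 7, and on day 7 the WT lines themselves were far apart. The differences were 0.14 (SE 0.272, adjusted p = 0.91 in limma), 0.56 (SE 0.272, adjusted p = 0.39) and -1.19 (SE 0.272, adjusted p = 0.0033) on days 0, 3 and 7. The fall depends on WT V6.5: without that line it was -0.43 (adjusted p = 0.12), and without its day 7 replicate 1 or 2 it was -0.98 or -0.97. It was not called without KO E14 either (-1.08, adjusted p = 0.076), nor with arrays of a line averaged (adjusted p = 0.079).

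Hoxb3, its neighbour and a hindbrain gene too, also had every KO array below every WT array on day 7, at a mean of 7.58 ± 0.08 in KO and 8.10 ± 0.14 in WT arrays (SD, n = 4 each), a difference of -0.52 (SE 0.138, adjusted p = 0.012 in limma). Hoxb1, the marker of rhombomere 4, differed by -0.56 (SE 0.228, adjusted p = 0.11), with overlapping groups. Hoxb4, Hoxb5 and Hoxb6 differed by -0.47, -0.23 and -0.41, and Hoxb7 by 0.08, all with overlap. At the posterior end the sign changed: Hoxb9, a rib and thoracic gene, averaged 8.12 ± 0.13 in KO and 7.28 ± 0.28 in WT arrays (SD, n = 4 each; difference 0.84, SE 0.149, adjusted p = 0.00034). Hoxb13, a gene of the tail and prostate, averaged 6.72 ± 0.04 and 6.03 ± 0.16 in KO and WT arrays (difference 0.69, SE 0.147, adjusted p = 0.002), and both genes had no overlap. The HoxB median was 0.07, 0.16 and -0.41 on days 0, 3 and 7.

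Grouped by paralog number, the posterior members had the highest median difference between genotypes on each day. All 11 posterior members (paralogs 9 to 13) were above 0 on every day, with medians of 0.50, 0.55 and 1.05, and 6 of the 11 had risen on day 7. The 12 central members (4 to 8) had medians of 0.14, 0.27 and -0.11, and the 5 anterior members (1 to 3) 0.07, 0.30 and -0.52. The anterior group mixed clusters. On day 7 Hoxa2 and Hoxa3 differed by 0.65 and 0.60, and Hoxb1, Hoxb2 and Hoxb3 by -0.56, -1.19 and -0.52. Without the line WT V6.5 the central median on day 7 was 0.14, with 10 of 12 members above 0 against 6 of 12 with all lines, and 10 of the 11 posterior members were above 0 on day 3. Pearson's r between paralog number and difference over the 28 members was 0.73 on day 0, 0.28 on day 3 and 0.68 on day 7. On day 7 it was 0.59 in HoxA (n = 10), 0.88 in HoxB (n = 9) and 0.85 in HoxC (n = 9). In the same order it was 0.89, 0.41 and 0.70 on day 0, and 0.18, -0.20 and 0.33 on day 3. These are descriptions across genes, which share the same arrays and are not independent. On day 7 the median per paralog number was highest at number 12, where Hoxc12 was the one member, and at number 11 (1.54, Hoxa11 and Hoxc11), and lowest at number 1 (Hoxb1). It did not rise evenly: numbers 1 to 8 lay between -0.56 and 0.33, and numbers 9 to 13 between 0.81 and 1.56.

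**Figure D2:**
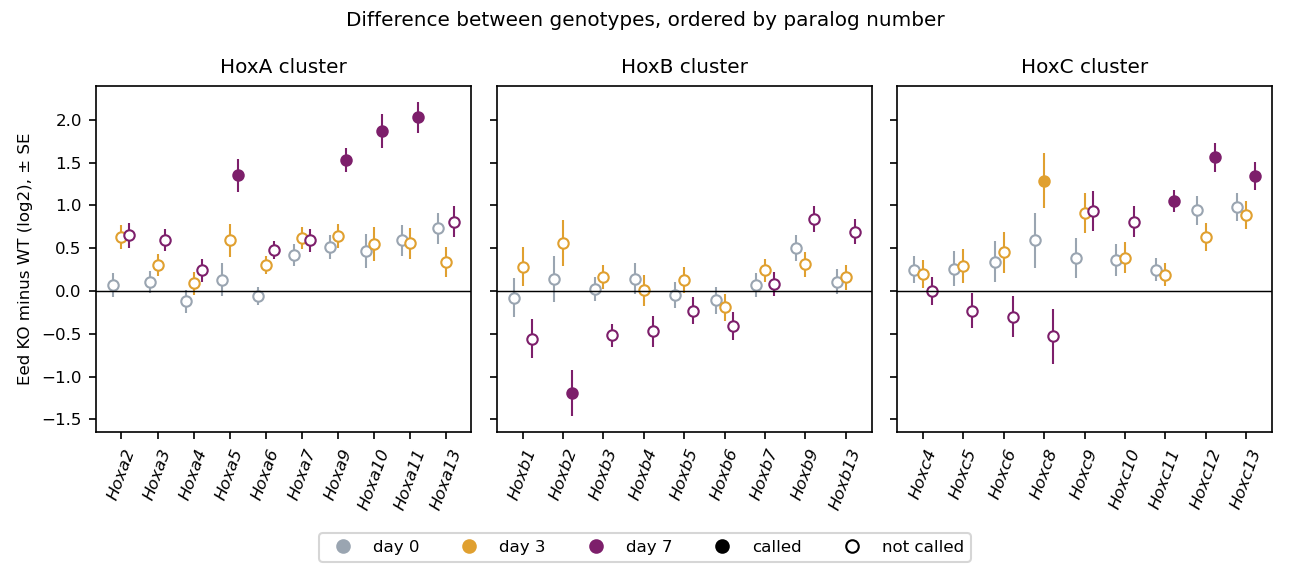
Eed KO minus WT (log2, vertical axis, with bars of ± 1 SE) for each member in order of paralog number within HoxA, HoxB and HoxC (horizontal axis), on days 0, 3 and 7, filled where called. In HoxB, day 7 points pass from below 0 at Hoxb2 (-1.19) to above 0 at the posterior end. Every HoxA point of day 7 is above 0, up to 2.03 at Hoxa11. Those of HoxC are below 0 at Hoxc5, Hoxc6 and Hoxc8 and above 0 from Hoxc9 on.

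In ESCs no member was called (0 of 28 against 0.552% of all genes, limma), and 8 of 28 had an unadjusted p under 0.05. Hoxa13, Hoxc12 and Hoxc13 passed the adjusted p with no fold minimum, 3 of 28 against 1.51% of all genes that were higher in KO. On day 3, 7 of 28 did so (1.58% of all genes), and on day 7, 16 of 28 (10.1%) in the direction of KO and Hoxb2 and Hoxb3 (6.23%) in the direction of WT. With no test, all 4 KO arrays lay above all 4 WT arrays for 10, 14 and 15 of 28 members on days 0, 3 and 7, against 6.33%, 6.12% and 9.7% of all genes. They lay below all WT arrays for 0, 0 and 2 members, against 5.01%, 4.3% and 7.13%. Hoxc13 was called on day 0 without KO E14, without WT J1 and without replicate 2 alone of either, and Hoxc12 without KO J1, without WT V6.5 and without WT V6.5 replicate 1.

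Fibroblast genes moved with the genotype as well. The average of 16 fibroblast markers, which feeder cells would bring, lay between 7.79 and 8.81 in KO and between 7.37 and 7.69 in WT arrays on day 0, with all 16 above 0 in the difference and Fbln2, Lox and Thbs1 risen. On day 3 the ranges were 7.20 to 7.39 and 6.79 to 7.15 with 0 of 16 called (2 at an unadjusted p under 0.05), and on day 7 they overlapped at 7.92 to 8.46 in KO and 7.83 to 9.05 in WT arrays. On day 7 Prrx1 had risen and Col1a1, Col1a2 and Postn had fallen. Embryonic fibroblasts can express Hox genes of the trunk, and the part of feeder RNA in the members' differences was not tested.

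The makeup of the embryoid bodies differed too on day 7. Of 9 ESC markers, 8 were called higher in KO than in WT. List averages were 11.06 to 11.67 in KO and 8.07 to 8.67 in WT arrays, against 11.61 to 12.03 and 11.19 to 11.60 on day 0. The larger change since day 0 was thus the decline in WT cells. Of 6 blood markers 5 were called lower in KO than in WT, with averages of 6.01 to 6.72 and 9.84 to 10.93 in KO and WT arrays. On day 0 those averages were 6.23 to 6.49 and 6.32 to 6.71, so the blood average had gone up in WT cells. Of 4 lateral and extraembryonic mesoderm markers Hand1 and Foxf1 were called lower in KO (8.63 to 8.74 in KO, 9.91 to 10.65 in WT arrays). Among 5 paraxial mesoderm markers, the tissue that forms vertebrae, Foxc2 and Tcf15 were called higher in KO than in WT. The averages overlapped at 7.34 to 7.96 in KO and 7.03 to 7.70 in WT arrays. From day 0 to day 7 Tcf15 changed by -2.10 in WT cells and Foxc2 by 1.53 in KO cells. Within J1 on day 7, Foxc2 and Tcf15 were higher in KO by 1.67 and 1.60, whereas Tbx6 was lower, at -1.08 (SE 0.175, adjusted p = 4e-04 in limma). The part of these populations in the members' values was not tested.

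The members were then followed through differentiation within each genotype. In WT cells 3 of 28 members had risen between day 0 and day 7 (5.09% of all genes) and 0 had fallen (3.89%): Hoxb2 by 2.15 (SE 0.231, adjusted p = 9.4e-08 in limma), Hoxc8 by 1.93 (SE 0.274, adjusted p = 4.4e-06) and Hoxc6, a gene of the forelimb level, by 1.47 (SE 0.204, adjusted p = 3.2e-06). Measured from day 3 to day 7 the same 3 genes had risen (3.78% of all genes), by 2.21, 2.05 and 1.58. Between day 0 and day 3 WT had 0 of 28 called (limma, 2.04% of all genes) and 0 at an unadjusted p under 0.05. With no fold minimum, 13 of 28 were higher on day 7 than on day 0 (17.4% of all genes), among them all of Hoxb1 to Hoxb6 and Hoxc4 to Hoxc10, and Hoxb13 was lower (19.2%). Without WT J1 day 7 replicate 1, 6 members were called, with Hoxb4, Hoxc5 and Hoxc9 added.

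In KO cells 5 of 28 members had risen between day 0 and day 7 (2.05% of all genes): Hoxa10 by 1.44 (SE 0.17, adjusted p = 3e-06 in limma), Hoxc9 by 1.44 (SE 0.199, adjusted p = 2.1e-05), Hoxa11 by 1.41 (SE 0.154, adjusted p = 1.1e-06), Hoxa9 by 1.30 (SE 0.118, adjusted p = 9.5e-08) and Hoxa5 by 1.20 (SE 0.163, adjusted p = 1.8e-05). At the 2-fold minimum none of these was among the 3 WT genes. With no fold minimum, Hoxb2, Hoxc6 and Hoxc8 were also higher on day 7 than on day 0 in KO cells, and Hoxc9 was in WT cells. Of these 4 genes, Hoxb2 alone had a called difference between its KO and WT changes. From day 3 to day 7, Hoxa9, Hoxa10, Hoxa11, Hoxa13 and Hoxc10 had risen (1.65% of all genes), by 1.14, 1.41, 1.52, 1.05 and 1.03. Hoxa13 and Hoxc10 stood near the 2-fold limit, at 0.99 without KO E14 day 3 replicate 2 for Hoxa13, and at 0.93 without KO J1 day 7 replicate 1 and 0.99 without KO E14 day 7 replicate 2 for Hoxc10. Between day 0 and day 3, 0 of 28 were called (limma, 1.17% of all genes), with 9 at an unadjusted p under 0.05. With no fold minimum, 15 of 28 were higher on day 7 than on day 0 (9.25% of all genes). The gain of Hoxa5 from day 0 was 0.90 without the line KO J1.

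**Figure D3:**
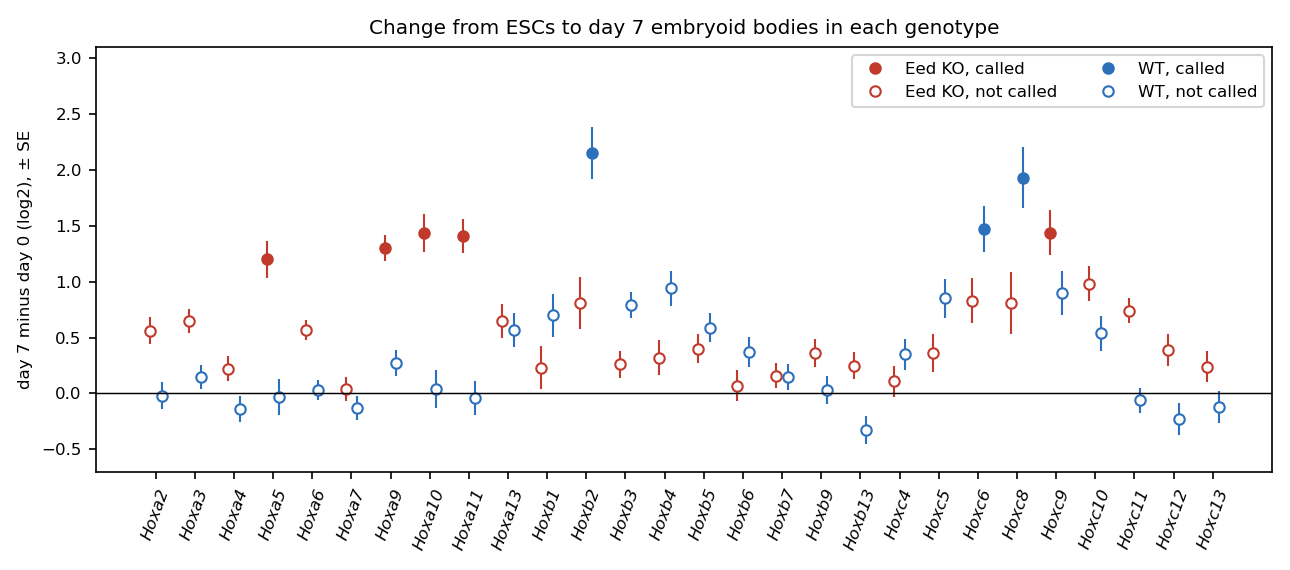
Change from day 0 ESCs to day 7 embryoid bodies (log2, vertical axis, with bars of ± 1 SE) for the 28 members (horizontal axis) in Eed KO (red, left) and WT (blue, right), filled where called. KO is called for 4 HoxA genes and Hoxc9, and WT for Hoxb2 (2.15), Hoxc6 and Hoxc8.

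Whether the change itself differed between the genotypes was tested as the KO change minus the WT change from day 0 to day 7. It was called for 4 members upward (1.93% of all genes) and 1 downward (1.45%). The values were 1.45 for Hoxa11 (SE 0.217, adjusted p = 0.00013 in limma), 1.40 for Hoxa10 (SE 0.241, adjusted p = 0.00062), 1.23 for Hoxa5 (SE 0.23, adjusted p = 0.0014) and 1.02 for Hoxa9 (SE 0.168, adjusted p = 0.00035), and -1.34 for Hoxb2 (SE 0.327, adjusted p = 0.011). For the 4 HoxA genes the KO cells had changed by the values above, while the WT changes were -0.03 for Hoxa5, 0.27 for Hoxa9, 0.04 for Hoxa10 and -0.04 for Hoxa11. Hoxb2 had changed by 0.81 in KO and 2.15 in WT cells. Hoxc12 and Hoxc13, apart from ESCs on, had 0.63 (SE 0.201, adjusted p = 0.055) and 0.36 (SE 0.197, adjusted p = 0.33) and were not called. Hoxc8 had -1.12 (SE 0.387, adjusted p = 0.079). With no fold minimum 9 members (4.74% of all genes) were called upward and 2 (3.37%), Hoxb2 and Hoxb3, downward. These comparisons share their day 7 arrays with those between genotypes, so they are not independent of them.

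Of the 5, Hoxa11 kept its call in each of the 36 alternatives. With arrays of a line averaged, Hoxa5 (adjusted p = 0.08 in limma) and Hoxb2 (adjusted p = 0.32) were not called. Without the line KO J1 the value was 1.17 for Hoxa10 (adjusted p = 0.052), 0.93 for Hoxa5 (adjusted p = 0.071), 0.89 for Hoxa9 and -1.53 for Hoxb2 (adjusted p = 0.073). Without WT V6.5 it was 1.08 for Hoxa10 (adjusted p = 0.073), 0.93 for Hoxa9 (adjusted p = 0.054) and -0.63 for Hoxb2 (adjusted p = 0.21), and without KO E14 it was -1.15 for Hoxb2 (adjusted p = 0.23). Hoxa9 also fell short of 2-fold without any of 6 single arrays, at 0.97 without WT J1 day 0 replicate 1, 0.99 without WT V6.5 day 0 replicate 1, 0.96 without WT J1 day 7 replicate 1, 0.96 without KO J1 day 0 replicate 2, 0.98 without KO J1 day 7 replicate 2 and 1.00 without WT V6.5 day 7 replicate 2. From day 0 to day 3 the change differed for 0 of 28 members (limma, 0.0502% of all genes), with 2 at an unadjusted p under 0.05.

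Since J1 was measured in both genotypes, the comparison was repeated within that line, with 2 arrays a genotype and day and the spread pooled over all 12 line and day groups. KO J1 and WT J1 were separate lines, so other differences between these cells cannot be told apart from the genotype. On day 7, 8 of 28 members had risen in KO J1 relative to WT J1 (2.91% of all genes) and 0 had fallen (1.38%). Hoxa11 differed by 1.84 (SE 0.192, adjusted p = 3.8e-06 in limma), Hoxa5 by 1.80 (SE 0.204, adjusted p = 9.5e-06), Hoxa10 by 1.71 (SE 0.236, adjusted p = 7.8e-05) and Hoxa9 by 1.58 (SE 0.165, adjusted p = 3.7e-06). In HoxC the values were 1.26 for Hoxc13 (SE 0.171, adjusted p = 6.4e-05), 1.11 for Hoxc12 (SE 0.148, adjusted p = 5.5e-05), 1.08 for Hoxc9 (SE 0.271, adjusted p = 0.013) and 1.06 for Hoxc10 (SE 0.23, adjusted p = 0.0046). The fall of Hoxb2 was not called within J1, at -0.32 (SE 0.19, adjusted p = 0.29), and Hoxc11 stood at 0.92 (SE 0.151, adjusted p = 0.00044).

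On day 0 within J1, Hoxc13 had risen by 1.01 (SE 0.171, adjusted p = 0.0039 in limma), 1 of 28 members against 0.286% of all genes. On day 3, Hoxc8 had risen by 1.20 (SE 0.239, adjusted p = 0.0095) and Hoxc13 by 1.06 (SE 0.171, adjusted p = 0.0023), 2 of 28 against 0.742%. With 2 arrays a group single arrays decide several of these calls. Hoxc13 on day 0 was 0.87 (adjusted p = 0.075) without WT J1 replicate 1 and 0.93 (adjusted p = 0.085) without KO J1 replicate 2, and on day 3 it was 0.95 without KO J1 replicate 1. The day 3 call of Hoxc8 was lost without KO J1 replicate 1 or 2 (adjusted p = 0.066 and 0.095) and without WT J1 replicate 1 or 2 (adjusted p = 0.057 and 0.063).

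On day 7 within J1, Hoxc9 was 0.90 without KO J1 replicate 1 and 0.64 without WT J1 replicate 1, and Hoxc10 was 0.78 and 0.73 without the same arrays. Hoxc12 was 0.96 without KO J1 replicate 1, so that 5 members remained called there. The other 5, Hoxa5, Hoxa9, Hoxa10, Hoxa11 and Hoxc13, were called without any of the 4 arrays. With no fold minimum 2, 5 and 15 of 28 were higher in KO J1 on days 0, 3 and 7, against 1.01%, 1.59% and 8.68% of all genes.

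The lines of a genotype were set against each other to see which members vary with the line. Between KO E14 and KO J1 no member was called (limma), on day 0 (0.396% of all genes), day 3 (0.0451%) or day 7 (0.998%), with 0, 2 and 3 of 28 at an unadjusted p under 0.05. The largest KO difference between lines on day 7 was that of Hoxc12, at 0.85 (SE 0.148, adjusted p = 0.0038), and Hoxa5 stood at -0.64 (SE 0.204, adjusted p = 0.11). Without KO E14 day 7 replicate 2, Hoxa5 was called between the KO lines. Between WT V6.5 and WT J1, Hoxc8 was higher in V6.5 by 1.71 (SE 0.239, adjusted p = 0.00057) and Hoxb2 by 1.52 (SE 0.19, adjusted p = 0.00018) on day 7, 2 of 28 against 0.592% of all genes. Without WT J1 day 7 replicate 2, one of the pair of repeat arrays that differed most, 5 members were called, with Hoxc5, Hoxc6 and Hoxc9 added. Hoxc8 and Hoxb2, called with all arrays, are 2 of the 3 members that rose in WT differentiation. On days 0 and 3 no member was called between the WT lines (limma, 0.953% and 0.637% of all genes), with 0 and 2 of 28 at an unadjusted p under 0.05. Their WT J1 means on day 7 were 7.58 for Hoxc8 and 8.25 for Hoxb2, which lies within the KO range of 7.56 to 8.23 for Hoxc8 and above that of 7.45 to 8.11 for Hoxb2.

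**Figure D4:**
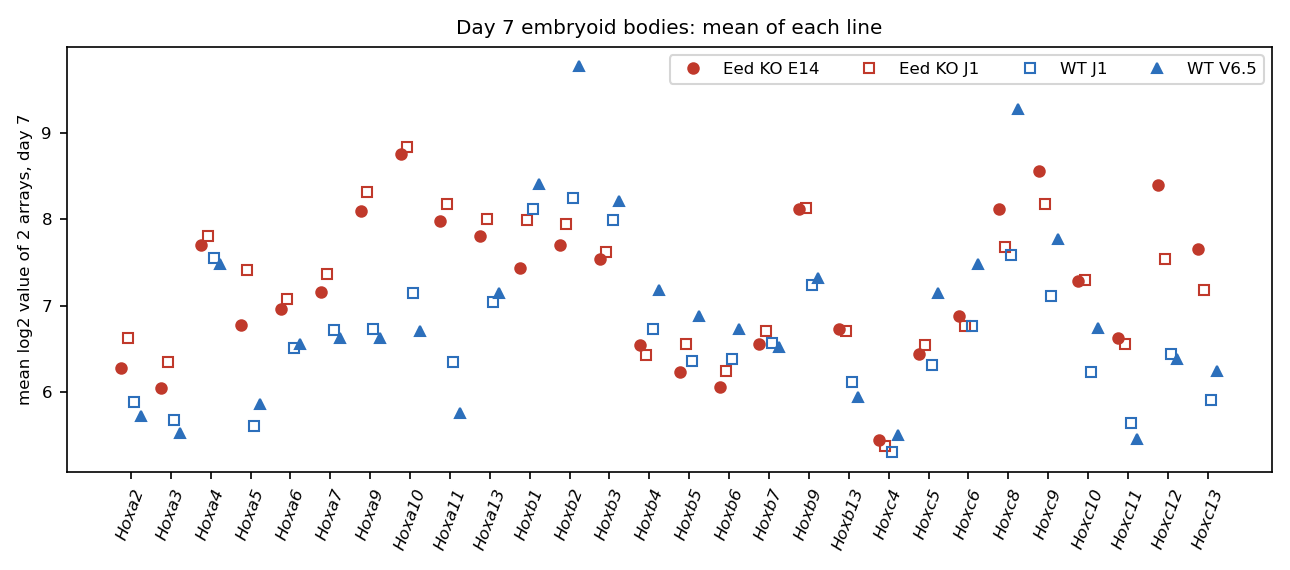
Mean log2 expression value of 2 arrays (vertical axis) on day 7 for each member (horizontal axis) in KO E14, KO J1, WT J1 and WT V6.5. Both KO lines stand above both WT lines for all 10 HoxA genes, Hoxb9, Hoxb13 and Hoxc9 to Hoxc13, while WT V6.5 stands apart at Hoxb2 and Hoxc8. The share of all genes with line means in that order was not computed. On single arrays Hoxa4 and Hoxc9 overlapped, and KO lay above WT without overlap for 15 of 28 members, against 9.7% of all genes.

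The fourth cluster served as the nearest set for comparison. Of 9 HoxD genes, Hoxd10 and Hoxd13 had risen in KO already on day 0, by 1.40 and 1.51 (SE 0.194 and 0.199, adjusted p = 2e-04 and 0.00015 in limma), Hoxd10, Hoxd11 and Hoxd13 on day 3, by 1.37, 1.41 and 2.14 (SE 0.194, 0.19 and 0.199), and the same 3 genes on day 7, by 2.13, 2.19 and 2.66 (SE 0.194, 0.19 and 0.199). The HoxD medians were 0.30, 0.72 and 0.31 on days 0, 3 and 7, beside 0.25, 0.32 and 0.59 for the 28 members. The difference between clusters was not tested.

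HOX proteins bind DNA together with PBX, MEIS and PKNOX partners, of which 8 of 9 were measured. Meis2 had risen in KO by 2.09 on day 0 (SE 0.231, adjusted p = 1.3e-05 in limma, 1 of 8). On day 3 Meis1, Meis2 and Pknox2 had risen by 2.00, 2.59 and 1.01 (3 of 8). On day 7, 0 of 8 had risen and Pbx3 and Pknox2 had fallen, with differences of -1.08 and -1.24 (SE 0.197 and 0.23, adjusted p = 0.00041 and 0.00052). The list medians were -0.00, -0.01 and -0.31. In WT cells Meis1 and Meis2 had risen by 2.75 and 3.86 from day 0 to day 7, and in KO cells by 2.06 and 2.30.

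Regulators that act on the clusters were read from lists as well. Of 6 measured axial regulators upstream of Hox genes, Cdx2, which activates central Hox genes, had fallen in KO on day 7, with a difference of -1.23 (SE 0.243, adjusted p = 0.00095 in limma), and 0 of 6 had risen. On days 0 and 3, 0 of 6 were called, with 0 and 2 at an unadjusted p under 0.05, and the medians were -0.04, -0.07 and -0.07 on days 0, 3 and 7. Of 17 measured retinoic acid pathway genes, 3 had risen on day 7 and 0 had fallen: Aldh1a2, which makes retinoic acid, by 1.76 (SE 0.33, adjusted p = 0.00056), Crabp1, its carrier in the cell, by 1.19 (SE 0.273, adjusted p = 0.0036), and Stra8, a target induced by it, by 1.57 (SE 0.186, adjusted p = 2e-06). On day 3 Crabp1 had risen by 1.30 (1 of 17), and on day 0 none was called, with 3 at an unadjusted p under 0.05. The medians were 0.10, 0.08 and 0.43. Within J1 on day 7, Stra8 had risen by 1.84 (SE 0.195, adjusted p = 4.5e-06 in limma) and Rarg by 1.31 (SE 0.165, adjusted p = 3.1e-05), while Aldh1a2 and Crabp1 were not called.

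The Hox clusters, HoxD included, also hold noncoding RNAs, of which 8 of 14 listed were measured by a probe set of their own symbol. None was called on day 0, 3 or 7 (limma), with 0, 0 and 1 at an unadjusted p under 0.05. The 1 was Mir196a-1, a microRNA gene of HoxB beside Hoxb9, with a difference of 0.91 on day 7 (SE 0.182, adjusted p = 0.001). Its arrays read 5.75 and 5.77 in KO E14 and 5.33 and 5.38 in KO J1, against 4.79 and 4.26 in WT J1 and 4.95 and 4.59 in WT V6.5, so the genotypes were apart by less than 2-fold. Its mature product and that of Mir196b in HoxA share their seed, bases 2 to 8, in capitals below, and are known to target Hox transcripts. The sequences are RefSeq's on build GRCm38.p6.
mmu-miR-196a-5p: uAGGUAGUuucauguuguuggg
mmu-miR-196b-5p: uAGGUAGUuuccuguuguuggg

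The same mature miR-196a-5p is encoded by Mir196a-2 in HoxC, whose probe set differed by 0.06 on day 7 (SE 0.184, adjusted p = 0.88 in limma). Mir196b, beside Hoxa9, differed by 0.23 (SE 0.121, adjusted p = 0.22). A probe set of such a gene on this array reads RNA from the hairpin locus, not the mature strand alone. The other 5 noncoding RNAs, Hottip and Hoxaas2 among them, lay between -0.06 and 0.09.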

How the data were processed

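Per the submitters' processing notes the authors made the deposited log2 expression values with Affymetrix Power Tools and RMA (background correction, quantile normalization and 1 summary a probe set). Their versions and the genome build are not given in these sources. Differences near the background are compressed by such values, and the number of arrays limits the precision. Of 35556 probe sets, 21789 had 1 gene symbol, and the highest-mean probe set stood for each of 19938 genes. Differences came from limma 3.58.1 in R 4.3.3, with 6 genotype-by-day means and the line of each genotype as a random block (consensus correlation 0.161). Comparisons within J1 and between lines came from 12 line-by-day means with no block. P-values were Benjamini-Hochberg adjusted over all genes of a comparison. The code was tested on simulated data. Replicate numbers were not used to pair arrays in the main fit. Over 66 pairs of groups, deviations of same-numbered arrays correlated at -0.397 to 0.47, with a median of 0.0569 and 30 pairs over 0.1. These correlations do not settle whether same-numbered arrays share a batch.

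The members, the lists and the rule for printing array values (every member called between genotypes) were chosen with earlier results of these data known, and no list was tested as a set. Alternatives changed the averaging, block, normalization, filter, fold minimum, probe set rule, arrays and lines.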

Additional observations from a re-analysis of the deposited data

Results flagged for a closer look

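For each of the 9 members printed array by array, the 4 arrays of each genotype and day were searched for 1 that stood far from the other 3. In 2 of 54 such sets 1 did, where chance gives about 1 in 20. Hoxa10 read 7.17 in WT V6.5 day 0 replicate 2, against 6.77 to 6.80 in the other WT arrays of that day. Hoxc8 read 8.0 in KO E14 day 3 replicate 2, against 7.54 to 7.6 in the other KO arrays of day 3, and the call of Hoxc8 on day 3 was lost without that array (adjusted p = 0.11 in limma).

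In 5 members KO and WT cells differed in their change over the 7 days when that difference itself was tested (limma, adjusted over all genes). It was 1.23 for Hoxa5, 1.02 for Hoxa9, 1.40 for Hoxa10 and 1.45 for Hoxa11, higher in KO, and -1.34 for Hoxb2, lower in KO. Of these, Hoxa11 alone kept its call in all 36 alternatives. The call of Hoxb2 was lost without KO E14, without KO J1, without WT V6.5 and with arrays of a line averaged.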

How the results depend on the processing

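Of 43 member differences called, 27 kept their call under all alternatives run for them (at most 36 each) and 0 changed sign. Some alternatives could not test these calls. Each member had 1 probe set, so averaging the probe sets of a gene left its values as they were. Dropping the fold minimum used the same fit and could only add calls. The alternative without both WT J1 day 7 arrays was chosen after seeing the data. On day 0 the count of 0 members called between KO and WT became 1 without KO E14, KO J1, WT J1 or WT V6.5. On day 3 the count of 1 became 0 with arrays averaged or without KO E14 or KO J1, and 2 without WT J1 or WT V6.5. With no fold minimum the counts on days 0, 3 and 7 were 3, 7 and 18. They were 14 and 15 for WT and KO from day 0 to day 7 and 11 for the difference of these changes. Within J1 they were 2, 5 and 15. The WT count of 3 became 6 without WT J1 or without both WT J1 day 7 arrays. The difference of changes, called for 5 members, was called for 3 with arrays averaged, 1 without KO J1 and 2 without WT V6.5.

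Leaving out 1 array gave 0 to 1, 0 to 1 and 7 to 9 members between KO and WT on days 0, 3 and 7, 3 to 6 for WT and 5 to 6 for KO from day 0 to day 7, 4 to 5 for the difference of changes, and 0 to 1, 0 to 2 and 5 to 9 within J1. Beyond fewer arrays or a lower threshold, the causes were not tested. The replicate block changed no count: 0, 1 and 8 between KO and WT, 3 and 5 within WT and KO, 5 for the difference of changes, and 1, 2 and 8 within J1. Under a further quantile normalization 5, 7 and 3 of 9 HoxB genes were above 0 on days 0, 3 and 7. Leaving out the genes of lowest mean removed members such as Hoxa5 and Hoxc11, which have no value there, and averaging could not be run within J1.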

Other observations

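The genes that flank the clusters were read from a list of 13, of which 12 were measured. Calcoco2, an autophagy receptor gene, had risen in KO on day 7 by 1.53 (SE 0.268, adjusted p = 0.00029 in limma), 1 of 12. On days 0 and 3, 0 of 12 were called, with 4 at an unadjusted p under 0.05 on each day, and the medians were 0.07, 0.16 and 0.08 on days 0, 3 and 7. The clusters' changes can be set beside the trithorax genes and H3K27 demethylases, which act against Polycomb: of 9 measured, 0 were called on days 0, 3 and 7 (limma), with 0, 1 and 4 at an unadjusted p under 0.05 and medians of -0.01, -0.06 and 0.10.

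Other lineage markers gave these counts on day 7 between KO and WT. Of 4 cardiac muscle markers Actc1 and Tnnt2 had fallen, and of 6 endothelial markers Kdr and Tie1 had fallen. The endothelial markers also varied with the line. On day 7 Cdh5, Kdr and Tie1 were lower in KO E14 than in KO J1, at -2.47, -1.57 and -1.55. Neither Kdr nor Tie1 was called within J1 on day 7. Of 5 neural, 5 primitive streak and 4 visceral endoderm markers 0 were called (limma), with 1, 1 and 2 at an unadjusted p under 0.05.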
